A study of Mus musculus with 6 samples.

Results

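The 7 genes described here encode feedback inhibitors and survival kinases that the transcription factor STAT5 is known to switch on: Cish, Socs1, Socs2 and Socs3 of the SOCS family, and Pim1, Pim2 and Pim3 of the PIM family. They were followed in 32D cells through every probe set of the Affymetrix Mouse Genome 430 2.0 array that is annotated to one of these symbols alone, 17 of 45037 probe sets that are not controls. Of the 17, 6 belong to Socs2, 3 each to Socs3 and Pim3, 2 to Pim1, and 1 each to Cish, Socs1 and Pim2. The 3 tested samples, called Nup98::Nsd1 cells here, were 32D cells transduced with the Nup98::Nsd1 fusion gene, and the 3 they were set against, called mock cells, were mock-transduced 32D cells labelled with the vector MSCVpuro. Both share the C3H/HeJ background and an origin in bone marrow infected with Friend leukaemia virus, and the line needs interleukin-3 (IL-3) to grow. The labels give neither a clone nor the IL-3 dose at harvest. They also do not state whether the 3 samples of a group were separate cultures, and the p-values below describe the scatter among these 6 samples, part or all of which may be technical.

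IL-3 signals through its receptor to the kinase Jak2, which phosphorylates STAT5, and STAT5 then enters the nucleus. SOCS proteins bind phosphorylated receptors or JAK kinases through an SH2 domain, and their SOCS box recruits a ubiquitin ligase, so that they damp the signal that induced them. PIM proteins are serine and threonine kinases with no known need for phosphorylation by an upstream kinase, so their activity depends largely on their amount. They favour survival and growth of blood cells that depend on cytokines. No protein was measured here. The comparison of Nup98::Nsd1 with mock cells asks how these genes differ once the fusion is expressed. Beside them, Il3ra, which encodes the IL-3-binding receptor subunit, had a 3.29-fold higher level (signals of 1089 ± 82.3 in Nup98::Nsd1 cells and 331 ± 23.9 in mock cells, given as mean ± SD over 3 arrays a group).

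The arrays of the series set the scale for what follows. Signals are MAS5 intensities scaled so that the trimmed mean of each array is 500, and the number of arrays limits their precision. MAS5 called 47.6% to 48.2% of probe sets Present, that is detected, on Nup98::Nsd1 arrays and 45.1% to 45.9% on mock arrays. For Actb, the 3' control probe set over the 5' one, a measure that moves with RNA integrity and labelling, gave 1.451 to 1.5 on Nup98::Nsd1 arrays and 1.148 to 1.202 on mock arrays. The part of this difference in the results was not tested. Of the fusion partners, Nup98 had log2 fold changes of 0.47 and 0.52 at its 2 probe sets, both called higher, while all 4 Nsd1 probe sets were Absent on every array. No source used here says which of these probe sets fall in the transduced sequence, so they check no label. Of 8 markers of 32D myeloid progenitors, 6 were Present on each Nup98::Nsd1 array and 7 on each mock array, the difference being Elane, neutrophil elastase, and the receptor gene Kit was Present on no array. The summed signal of these markers was 35954 to 36832 on Nup98::Nsd1 arrays and 60380 to 64393 on mock arrays. The markers went both ways: Mpo, Ms4a3, Prtn3 and Elane were called lower (log2 fold changes -1.88, -2.36, -0.92 and -1.30), Ptprc and Csf2rb higher (0.39 and 0.17, but 0.027 and -0.20 with hybridization controls), and Ctsg was not called (0.05). These are values of the brightest probe sets, and Elane was tested only through mock arrays, where it was brighter. A second Csf2rb probe set was called lower (-0.37), and a second Ptprc probe set was called higher (1.82). Of 6 lymphoid markers on the array, 1 to 2 were Present on Nup98::Nsd1 arrays and 2 to 3 on mock arrays, Cd3e, Cd3g and Cd79a on none, and they summed to 479 to 545 in Nup98::Nsd1 cells and 515 to 563 in mock cells. Cd79b was Present on all 6 arrays, Cd8a on the 3 mock arrays alone, and Ms4a1 on 2 arrays of each group. Cd8a was read through 5 probe sets, of which no single one was Present on all 3 mock arrays. Of 3 erythroid markers, 0 to 2 were Present on Nup98::Nsd1 arrays and 1 on each mock array, Alas2 on none, with sums of 147 to 187 in Nup98::Nsd1 cells and 243 to 303 in mock cells. Klf1 was Present on 1 Nup98::Nsd1 array and all 3 mock arrays and was called lower (log2 fold change -0.95). It was tested only through mock arrays, where it was brighter. Slc4a1 was Present on 1 Nup98::Nsd1 array and no mock array. Of 5 fibroblast markers, 0 to 1 were Present on an array of either group, with sums of 120.1 to 153 in Nup98::Nsd1 cells and 103 to 167 in mock cells. The part of the marker differences in the results was not tested. In such bulk samples a smaller share of cells of one kind and less RNA per cell cannot be told apart.

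STAT5 binds the palindrome TTCNNNGAA, where N is any base, so the promoters of the members were read for it. RefSeq promoter windows of build GRCm38.p6, each running from 250 bases before to 50 bases after an annotated start, matched 6 of the 7 genes (7 windows, 2 of them for Pim1), and Socs2 was not matched. The palindrome reads the same on both strands and was searched in full windows; 8.3% of all 32851 windows hold at least 1 match and 0.457% hold 2 or more. Cish had 2 matches, TTCCTGGAA at positions 1 to 9 and TTCTTGGAA at positions 12 to 20 counted from the start site. Socs3 had 1, TTCTTAGAA at positions -154 to -146. The windows of Socs1, Pim1, Pim2 and Pim3 had 0, which says only that these letters are not in these windows. The Cish and Socs3 promoters are shown because they hold the motif, and that of Pim2 because it had the largest log2 fold change of the tested members and no match, each as the 250 bases before and 30 after the start, 5' to 3' on the strand of the gene, with motif matches in capitals:
Cish, chr9:107296409-107296688, plus strand: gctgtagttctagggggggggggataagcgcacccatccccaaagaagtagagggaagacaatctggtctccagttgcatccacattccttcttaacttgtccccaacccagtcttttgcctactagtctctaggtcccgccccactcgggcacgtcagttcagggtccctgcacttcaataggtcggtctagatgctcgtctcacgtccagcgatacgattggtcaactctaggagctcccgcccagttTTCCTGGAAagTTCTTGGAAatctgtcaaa
Socs3, chr11:117969337-117969616, minus strand: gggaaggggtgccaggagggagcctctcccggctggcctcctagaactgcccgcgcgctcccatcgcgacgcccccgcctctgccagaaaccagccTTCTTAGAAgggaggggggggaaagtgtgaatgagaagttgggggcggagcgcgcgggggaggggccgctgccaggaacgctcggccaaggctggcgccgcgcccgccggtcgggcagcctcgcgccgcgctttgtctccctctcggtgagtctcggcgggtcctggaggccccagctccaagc
Pim2, chrX:7878056-7878335, plus strand: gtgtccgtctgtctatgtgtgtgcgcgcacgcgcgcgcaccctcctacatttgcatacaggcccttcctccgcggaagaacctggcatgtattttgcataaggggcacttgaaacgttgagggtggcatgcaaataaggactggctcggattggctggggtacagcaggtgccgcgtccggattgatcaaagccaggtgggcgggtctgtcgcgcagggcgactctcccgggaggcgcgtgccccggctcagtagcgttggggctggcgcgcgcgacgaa
A match is a description of the sequence and not evidence of binding, and no binding was measured here.

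The signals of all 17 probe sets are drawn by array in the plot of signals. Of the 17, 10 were Present on all 6 arrays, and 14 were tested, the condition being a Present call on every array of one group or the other. Those that passed only through the group where they were brighter were 1 Socs2 and 1 Socs3 probe set, through Nup98::Nsd1 cells, and the Socs1 probe set and 1 Pim3 probe set, through mock cells. The 3 that were not tested belong to Socs2 (1) and Pim3 (2).

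**Figure D1:**
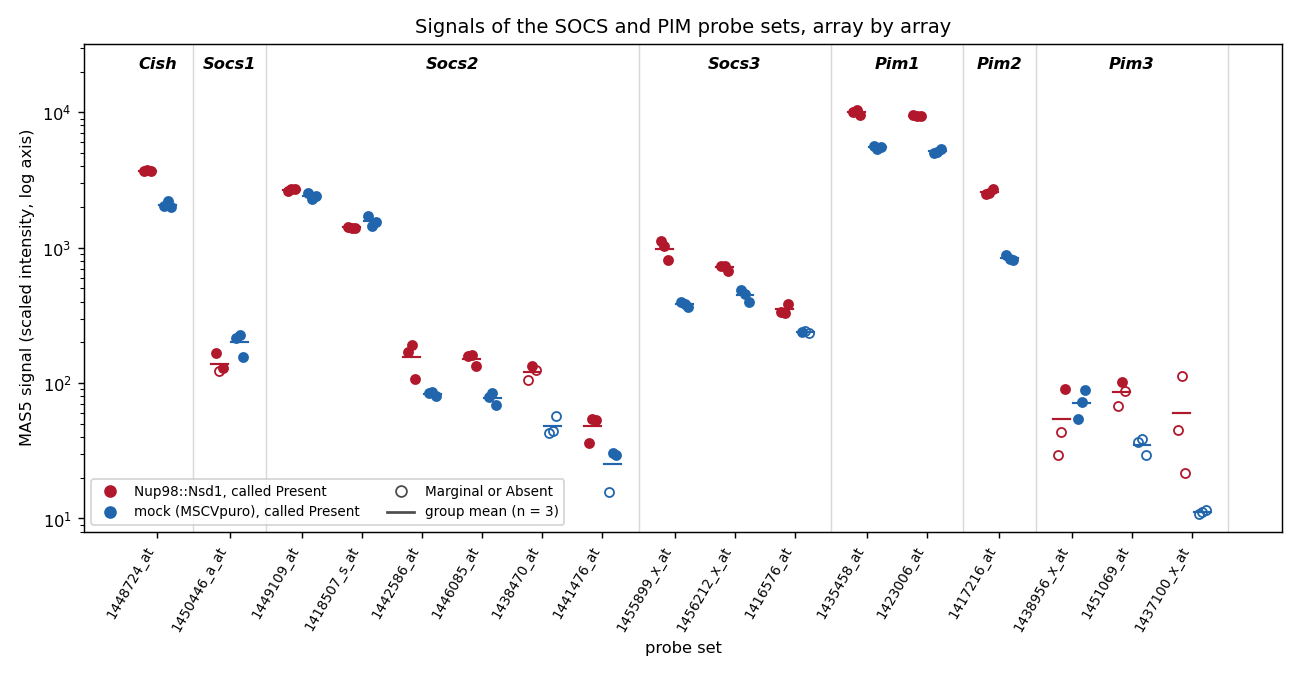
MAS5 signal (log axis) of each SOCS and PIM probe set on each array, with Nup98::Nsd1 arrays in red left of mock arrays in blue; filled points were called Present, open points Marginal or Absent, and bars are means of 3 arrays. Cish, Pim1, Pim2 and the Socs3 probe sets lie higher on all 3 Nup98::Nsd1 arrays, the 2 bright Socs2 probe sets differ little, and the Pim3 probe sets lie between 10.8 and 113.

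Taken gene by gene through the brightest tested probe set, 5 of the 7 genes rose and 1 fell in Nup98::Nsd1 cells, against 42.9% of all 9641 tested genes that rose, 29.5% that fell and 72.3% called in either direction (limma, Benjamini-Hochberg adjusted p under 0.05 over 20494 probe sets). Pim2, Pim1, Cish and Socs3 rose by at least 1.5-fold (4 of 7, against 22.5% of all tested genes), and Pim2 and Socs3 by at least 2-fold (2 of 7, against 9.53%). Socs3 reached 2-fold at its brightest probe set alone, the others standing at 1.61-fold and 1.46-fold. With the arrays scaled on their hybridization controls, Pim2 and Socs3 rose by at least 1.5-fold (2 of 7, against 10.4%) and Pim2 by at least 2-fold (1 of 7, against 4.39%). Socs2 rose by 0.15 on the log2 scale, and Pim3 did not pass the test. Socs1 fell, but it was tested only through its calls on mock arrays, where it was brighter. The median log2 fold change was 0.83 over the 7 genes and 0.12 over all tested genes. By probe set, 11 of 14 were called higher, against 42.3% of all tested probe sets, and 1 lower, against 27.6%. The 14 include those that passed the filter only through the group where they were brighter. In a fit to probe sets Present on all 6 arrays, 9 of 10 member probe sets were called higher and 1 lower. In that fit 7392 of all 17905 probe sets were higher and 5435 lower. The 2 groups of arrays did not overlap at 12 of the 14, against 73.2% of all tested probe sets. Since 69.9% of all probe sets were called in one direction or the other, a call by itself sets few genes apart in these data.

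**Figure D2:**
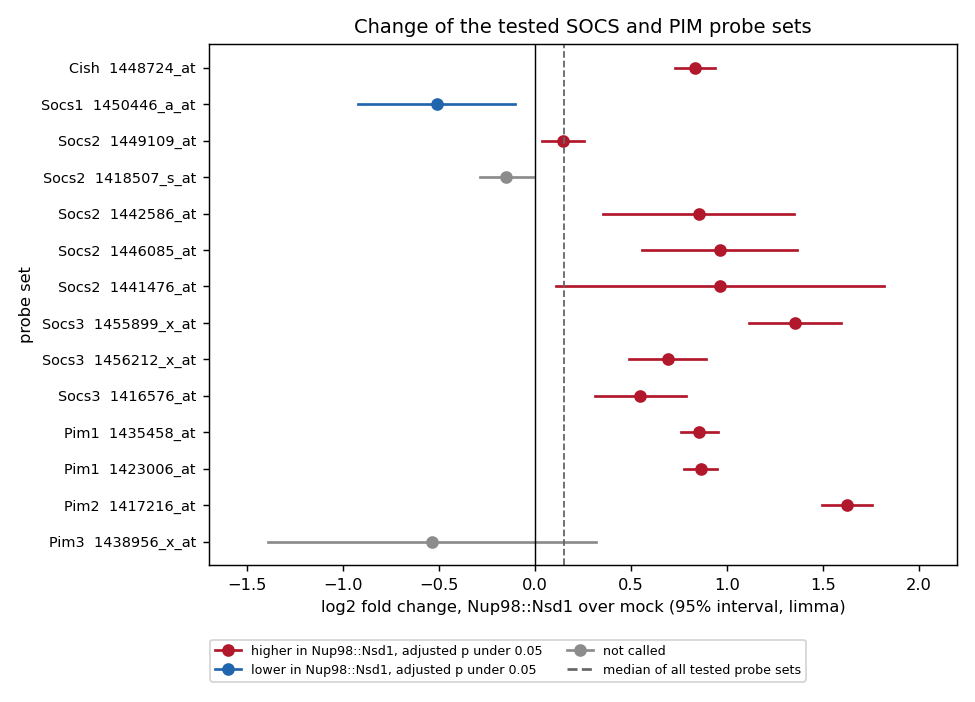
Log2 fold change, Nup98::Nsd1 over mock, with its 95% interval from limma for the 14 tested SOCS and PIM probe sets; red marks called rises, blue a called fall and grey no call, and the dashed line is the median of all tested probe sets (0.15). Pim2 stands highest at 1.62, Pim1 and Cish lie close together near 0.86 and 0.83, and the 5 tested Socs2 probe sets spread from -0.15 to 0.97.

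Cish, the founding SOCS member and a textbook STAT5 target that binds phosphorylated cytokine receptors, gave signals of 3670.1, 3762 and 3694 in Nup98::Nsd1 cells, against 2027, 2203 and 2013 in mock cells. Every Nup98::Nsd1 array lay above every mock array. Its level was 1.78-fold higher, at 3709 ± 47.6 in Nup98::Nsd1 cells and 2081 ± 106 in mock cells (limma log2 fold change 0.83, SE 0.048, 95% interval 0.73 to 0.94, adjusted p = 3.5e-08). Of all tested probe sets, 17.4% had a larger log2 fold change. Cish is the gene whose promoter window, shown above, holds both adjacent STAT5 motifs.

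Socs3, which blocks JAK kinases bound to receptors of the IL-6 and G-CSF type and is known as a target of both STAT3 and STAT5, rose at all 3 of its probe sets. The brightest, 1455899_x_at, gave 1115, 1032 and 811 in Nup98::Nsd1 cells, against 399, 384 and 366 in mock cells. These groups were far apart, with a wider spread among Nup98::Nsd1 arrays, and the means of 986 ± 158 in Nup98::Nsd1 cells and 383 ± 16.4 in mock cells differed 2.56-fold (log2 fold change 1.35, SE 0.109, limma adjusted p = 5.59e-07). The second, 1456212_x_at, gave 738, 738 and 678 in Nup98::Nsd1 cells, against 488, 456 and 394 in mock cells (log2 fold change 0.69, SE 0.092, limma adjusted p = 3.66e-05). The dimmest, 1416576_at, is the one annotated to the RefSeq mRNA and gave 335, 332 and 385, Present on each Nup98::Nsd1 array, against 239.7, 245 and 233, Present on 1 mock array (log2 fold change 0.55, SE 0.108, limma adjusted p = 0.000753). All 3 thus moved one way, while the size ran from 1.46-fold to 2.56-fold. Of them, 1416576_at was tested only through Nup98::Nsd1 arrays, where it was brighter. Both probe sets with the suffix _x_at carry probes that can hybridise to other transcripts, and with the hybridization controls as the scale 1416576_at stood at 0.18 and did not pass (adjusted p = 0.192).

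Socs2, a SOCS protein best known for limiting growth hormone signalling, gave different answers by probe set. The brightest, 1449109_at, gave 2606, 2727 and 2699 in Nup98::Nsd1 cells, against 2535, 2288 and 2429 in mock cells, a difference of 1.11-fold (log2 fold change 0.15, SE 0.050, limma adjusted p = 0.0192). That equals the median of all tested probe sets, and 50.2% of them had a larger change. The call ended with 75th percentile centring (-0.05) and median centring (-0.02), and with hybridization controls the value was -0.22 and called lower. It also ended without Nup98::Nsd1 replicate 2 (adjusted p = 0.0585), without mock replicate 2 (0.0963) and with no intensity trend in limma (0.0651). The second, 1418507_s_at, gave 1433, 1401 and 1407 in Nup98::Nsd1 cells, against 1712, 1455 and 1544 in mock cells (log2 fold change -0.15, 95% interval -0.29 to -0.01, limma adjusted p = 0.0519, called lower under 9 of 18 other settings). These 2 probe sets, both annotated to the RefSeq mRNA of Socs2, pointed in opposite directions by the same small amount.

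The other 4 Socs2 probe sets are annotated to other cDNA records, and each was dimmer than 200 on every array. Probe set 1446085_at gave 157, 162 and 135 in Nup98::Nsd1 cells, against 79.4, 84.8 and 69.1 in mock cells, 1.95-fold higher (log2 fold change 0.96, SE 0.184, limma adjusted p = 0.000613). Probe set 1442586_at gave 169, 192 and 107 in Nup98::Nsd1 cells, against 84.0, 86.4 and 80.9 in mock cells (log2 fold change 0.85, SE 0.226, limma adjusted p = 0.00539), a call that quantile normalization and hybridization controls ended (adjusted p = 0.103 and 0.0735). The groups did not overlap at either. At 1441476_at the signals were 36.4, 54.4 and 53.5 in Nup98::Nsd1 cells, against 15.8, 30.6 and 29.3 in mock cells (limma adjusted p = 0.0435, not called under 9 of the 17 other settings that tested it). This probe set was tested only through Nup98::Nsd1 arrays, where it was brighter. Probe set 1438470_at was not tested: it gave 106, 134 and 124, Present on 1 Nup98::Nsd1 array, against 42.5, 44.4 and 57.4, Present on no mock array. So the 2 dim probe sets Present on every array were 1.81-fold and 1.95-fold higher where the 2 bright ones moved by 0.15 on the log2 scale. Where each probe set lies in the gene was not analysed here.

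Socs1, which inhibits JAK kinases directly and restrains interferon signals, went the other way. Its probe set gave 165, 124 and 129 in Nup98::Nsd1 cells, Absent on the second of these arrays, against 215, 229 and 156 in mock cells, all Present. The lowest mock array lay below the highest Nup98::Nsd1 array, so the groups overlapped. The level was 1.43-fold lower, at 139 ± 22.8 in Nup98::Nsd1 cells and 199.8 ± 38.9 in mock cells (log2 fold change -0.51, SE 0.186, 95% interval -0.92 to -0.10, limma adjusted p = 0.0282). That call ended when Nup98::Nsd1 replicate 2 or 3, or mock replicate 1 or 2, was left out (adjusted p = 0.0901, 0.0775, 0.0874 and 0.115) and when no filter on detection was set (adjusted p = 0.0629).

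Among the kinases, Pim2 changed most. Pim2, which promotes survival and protein synthesis in blood cells and is known to be induced by cytokines, gave 2499.7, 2536 and 2729 in Nup98::Nsd1 cells, against 888, 819.8 and 809.9 in mock cells. No array of one group came near the other. The means of 2588 ± 123 in Nup98::Nsd1 cells and 839 ± 42.7 in mock cells differed 3.08-fold (log2 fold change 1.62, SE 0.058, 95% interval 1.497 to 1.753, limma adjusted p = 1.18e-09), and 4.08% of tested probe sets rose more. Pim2 lies on chromosome X and its promoter window held no match to the STAT5 motif.

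Pim1, found as a common site of retroviral insertion in mouse lymphomas and known to cooperate with Myc, was measured by 2 probe sets that gave the same answer. Probe set 1435458_at gave 10078, 10333 and 9544 in Nup98::Nsd1 cells, against 5633, 5365 and 5541 in mock cells. Probe set 1423006_at gave 9527, 9362 and 9345 in Nup98::Nsd1 cells, against 5041, 5137 and 5357 in mock cells. Both sets of groups were clear of each other, and the folds were 1.81 and 1.82 (log2 fold change 0.86 at both, SE 0.043 and 0.040, limma adjusted p = 1.27e-08 and 6.39e-09). The 95% intervals, 0.76 to 0.95 and 0.78 to 0.95, overlapped that of Cish and lay below that of Pim2; differences between members were not themselves tested.

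Pim3, the third kinase of the family, was near the detection limit. The one tested probe set, 1438956_x_at, gave 29.3, 43.4 and 89.8 in Nup98::Nsd1 cells, Present on the third alone, against 54.5, 72.0 and 88.6 in mock cells, all Present. The groups overlapped and no change was called (log2 fold change -0.54, SE 0.389, 95% interval -1.39 to 0.32, limma adjusted p = 0.238), an interval that leaves room for a change in either direction. Without Nup98::Nsd1 replicate 1 the log2 fold change was -0.17 (adjusted p = 0.698), and without Nup98::Nsd1 replicate 3 it was -0.98 and called lower (adjusted p = 0.0275). The other 2 pointed upward from low signals: 1451069_at gave 67.7, 102 and 87.2, Present on 1 Nup98::Nsd1 array, against 37.0, 38.7 and 29.4, Absent on each mock array, and 1437100_x_at gave 44.9, 113 and 21.5 in Nup98::Nsd1 cells, against 10.8, 11.2 and 11.6 in mock cells, Absent on all 6. For each of these 2, and for the untested Socs2 probe set, the exact permutation test, two-sided, gave p = 0.1, which is as low as 3 arrays against 3 can go. No fold is given where neither group was detected, and the data do not settle how Pim3 changed.

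The scaling of the arrays changed the calls of Socs2 and Pim3 and moved the sizes of the other changes. Both calls also changed when some single arrays were left out, as given above. With the bacterial hybridization controls as the scale, the median log2 fold change of all tested genes was -0.25 in place of 0.12, a shift of -0.37. Under that scaling Pim2 stood at 1.26, Socs3 at 0.99, Pim1 at 0.49 and Cish at 0.47, each still called higher but with log2 values of Pim1 and Cish over 1.5 times smaller than as deposited, while Socs2, Socs1 and Pim3 were called lower, at -0.22, -0.88 and -0.90. The split was then 4 genes higher and 3 lower, against 21.1% and 50.4% of all tested genes, and 7 probe sets higher and 4 lower, against 22.3% and 46.8% of all tested probe sets. With median centring 4 genes were higher and 1 lower (31.9% and 39.1% of all genes), as with 75th percentile centring (30.3% and 40.9%). With quantile normalization 5 were higher and 1 lower (36.3% and 33.1%). Pim2, Pim1, Cish and the brightest Socs3 probe set were called higher under each of the 18 other settings tried.

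**Figure D3:**
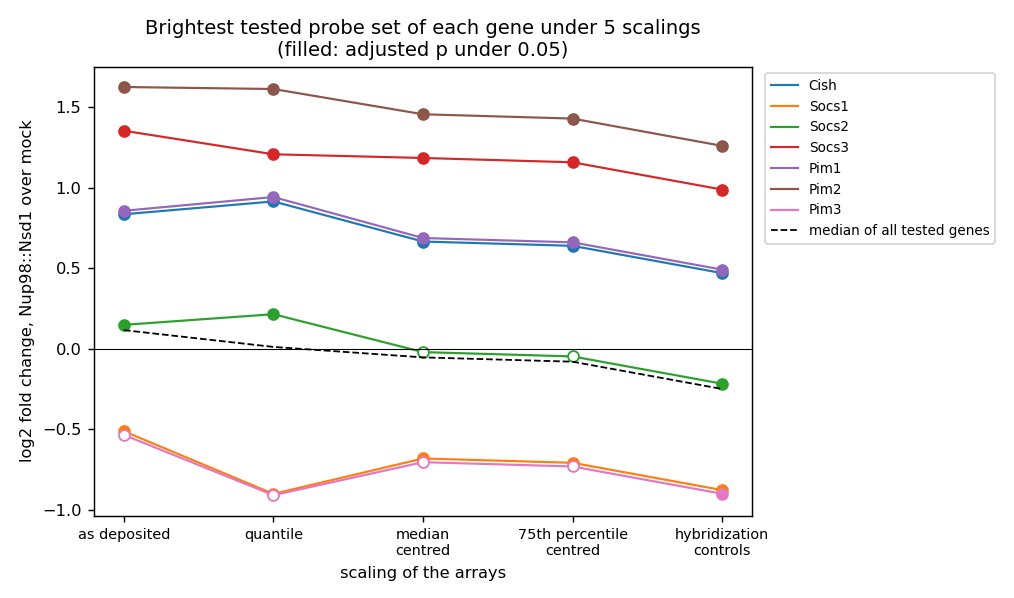
Log2 fold change, Nup98::Nsd1 over mock, of the brightest tested probe set of each gene under 5 scalings of the arrays; filled points have an adjusted p under 0.05, and the dashed line is the median of all tested genes. Pim2, Socs3, Pim1 and Cish stay above 0.46 throughout, Socs2 stands between 0.21 (quantile) and -0.22 (hybridization controls), and Socs1 and Pim3 stay below 0.

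The rest of the pathway was described with lists of genes chosen with earlier results of these data known. Their counts stand against 42.9% of all tested genes called higher and 29.5% lower as deposited, and 21.1% and 50.4% with hybridization controls. Of 12 tested genes of STAT5 signalling inputs (receptor chains, JAK kinases and the STAT5 genes), 8 rose and 1 fell as deposited, but 5 rose and 4 fell with hybridization controls. Il3ra and Il2ra, the alpha chain of the IL-2 receptor and itself a known STAT5 target, rose 3.29-fold and 3.02-fold (limma adjusted p = 1.16e-08 and 8.33e-10; a second Il2ra probe set rose by 0.46 on the log2 scale), and Csf3r, the G-CSF receptor, 1.72-fold (adjusted p = 5.35e-07). The STAT5 genes themselves gave mixed readings: Stat5b rose by 0.67 on the log2 scale at one probe set and stood at 0.06 at the other, and Stat5a rose by 0.32 at its brighter probe set and fell by 0.36 at the other, the rise not being called with either centring or with hybridization controls. Csf2rb counts as risen through its brighter probe set (0.17 on the log2 scale), while the other was called lower at -0.37. Csf2rb2, a further receptor chain, was the gene that fell, at -0.24 (limma adjusted p = 0.00241, called lower in all 19 settings). Jak2 was not called at its brighter probe set (0.02) and was called lower at the other (-0.39). The median log2 fold change of the list was 0.44, against 0.12 for all tested genes.

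Of 13 other known STAT5 targets tested, 6 rose and 4 fell, shares near those of all tested genes, with a median log2 fold change of 0.17 against 0.12. The 6 include Bcl6, which was tested only through Nup98::Nsd1 arrays, where it was brighter. Il2ra rose, as did Bcl2l1, which encodes the anti-apoptotic BCL-XL, by 0.82 on the log2 scale at 1 probe set (limma adjusted p = 9.44e-08) while 2 others stood at 0.01 and 0.02. Id1, an inhibitor of basic helix-loop-helix factors, was 1.35-fold lower (6721 ± 289 in Nup98::Nsd1 cells and 9082 ± 196 in mock cells). With hybridization controls 3 rose and 6 fell. Probe sets of the survival genes Bcl2 and Mcl1, named after their values were seen, disagreed. Bcl2 counts as fallen through its brightest probe set (log2 fold change -0.27), while others were called higher at 0.31, 0.87 and 1.10 and 1 lower at -0.26. Mcl1 was not called at its brightest (0.07), while others were called higher at 0.63, 0.81, 0.82 and 0.85 and 1 lower at -0.18.

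The remaining SOCS family genes and the ligase that SOCS proteins recruit were counted next. Of Socs4, Socs5, Socs6 and Socs7, 3 rose and 1 fell as deposited, and 0 rose and 1 fell with hybridization controls. Socs4 rose by 0.42 on the log2 scale (limma adjusted p = 1.73e-05) at its brightest probe set and fell by 0.56 at another, and Socs5 rose by 0.52 (adjusted p = 0.00151). Socs6 was the one called lower, at a log2 fold change of -0.19 at its brightest probe set (adjusted p = 0.039, called in 11 of 19 settings), and it was called higher, at 0.63, at another. Of the 4 ligase subunits, 0 rose and 3 fell, and with hybridization controls 4 fell. Rnf7, the RING subunit that works with cullin 5, was 1.75-fold lower at its brighter probe set and fell by 0.79 on the log2 scale at the other, and Eloc, elongin C, was 1.34-fold lower (adjusted p = 3.58e-08 and 1.15e-05 at the brighter probe sets).

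Of 11 other inhibitors of JAK and STAT signalling, 2 rose and 3 fell, with a median log2 fold change of -0.04 against 0.12 for all tested genes. Pias3, which inhibits STAT3, rose 2.44-fold (limma adjusted p = 4.38e-07) and Pias4 1.58-fold (adjusted p = 6.07e-06), while Pias2 was 1.82-fold lower at its brightest probe set (adjusted p = 8.61e-08) and not called at 2 others. With hybridization controls 2 rose and 9 fell. Genes not called at their brightest probe set were in part called at others. On the log2 scale, Ptpn2 (-0.97, -0.87 and -0.16) and Sh2b3 (-0.65) were called lower there. Cbl (0.81), Cblb (1.29) and Pias1 (0.62 and 0.68, with another not called at -0.02) were called higher. Ptpn1, counted as fallen, was called higher at its other probe set (0.25). Of 13 PIM substrates and partners, 7 rose and 4 fell (4 and 6 with hybridization controls), not far from the shares of all tested genes. Cdkn1b, the cell cycle inhibitor p27 that PIM kinases phosphorylate, rose 2.33-fold, Eif4ebp1, a repressor of translation initiation, 1.59-fold, and the phosphatase gene Cdc25a was 2.41-fold lower (adjusted p = 2.19e-08, 5.28e-08 and 2.42e-08).

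Cytokine systems that signal through other STAT factors were counted as well, against the 42.9% of all tested genes called higher (21.1% with hybridization controls). All 4 tested STAT genes outside STAT5 rose, Stat6 by 1.99-fold and Stat4 by 1.82-fold, while 2 rose and 0 fell with hybridization controls. Of 9 tested STAT3 and IL-6 type cytokine genes, 8 rose and 0 fell (5 and 1 with hybridization controls), among them Il6 by 4.23-fold (limma adjusted p = 2.92e-10) and Il10rb, a chain of the IL-10 receptor, by 1.94-fold. The 8 include Il6ra, Present on no mock array and so tested only through the group where it was high. Among the 8 genes of the list with a probe set Present on all 6 arrays, 7 rose and 0 fell. Of 9 tested interferon signalling genes, 8 rose and 0 fell (4 and 1 with hybridization controls), among them Irf7 by 5.41-fold, Gbp2 by 4.94-fold and Irf9 by 2.36-fold.

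**Figure D4:**
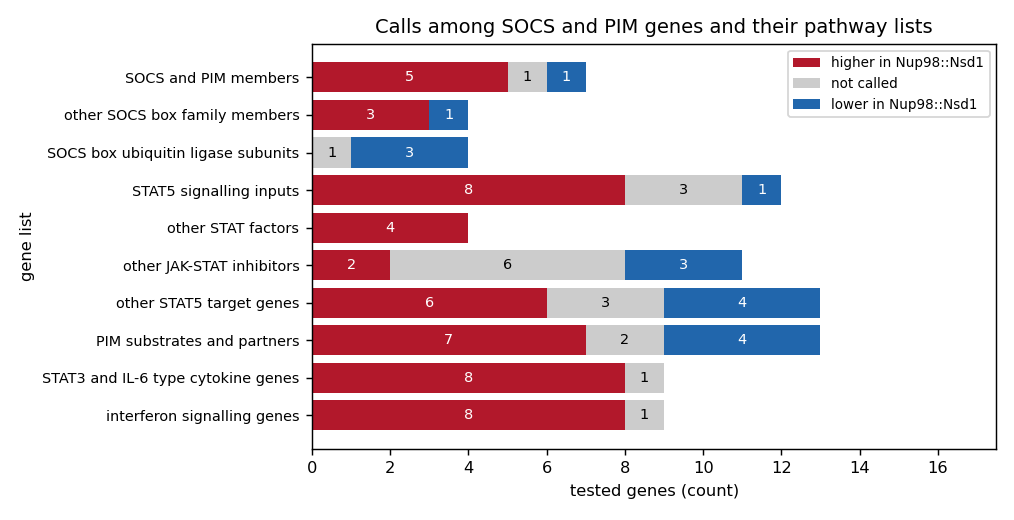
Number of tested genes (horizontal axis) called higher in Nup98::Nsd1 cells (red), not called (grey) and called lower (blue) in the SOCS and PIM genes and in 9 pathway lists, one bar a list. The SOCS and PIM bar holds 5, 1 and 1 genes, and the ligase subunits hold 0, 1 and 3.

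The genes whose log2 signals over the 6 arrays followed each member most closely were named as a description. For Pim2 they were Plekha5, Pde4b and Aif1, for Pim1 they were Egln2, P2rx3 and Clk2, for Cish they were Mfsd6, Nfe2l1 and Sos1, and for Socs3 they were Spata13, Plcg2 and Dcaf11. Pearson's r was between 0.9977 and 0.9998. Of 9640 other genes, 779 had an r over 0.99 with Pim2, 713 with Pim1, 651 with Cish and 108 with Socs3, and all of these points share the split of 3 arrays against 3.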

How the data were processed

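Each of 6 samples was hybridised to 1 Affymetrix array, without pooling. Per the submitters' processing notes and the file headers, the authors ran MAS5 and deposited a scaled intensity per probe set on a linear scale, with a detection p-value and a Present, Marginal or Absent call; no source used here gives the MAS5 version, and the deposited signals have a trimmed mean of 500 on every array. The series matrix held the same values (largest relative difference 5.00e-06).

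Of 45101 probe sets, 64 controls were left out; 34945 had 1 symbol in the platform annotation, 932 several and 9160 were not listed, and 34741 symbols were updated by Entrez identifier. Signals under 1 were set to 1 and taken to log2. Probe sets called Present on every array of one group or the other (20494) were tested with limma 3.58.1 in R 4.3.3 (intensity trend, Benjamini-Hochberg adjustment, threshold 0.05), and the fit was tested on simulated data. A gene was represented by its brightest tested probe set. All members were named; of each list, up to 3 genes past the threshold with the smallest p; and for 4 members the 3 genes with the highest r. The members and lists were chosen with earlier results of these data known. Alternatives were pseudocounts, detection filters, scalings, the series matrix, no trend, array weights, a replicate block, gene means, another floor and leaving out each array.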

Additional observations from a re-analysis of the deposited data

How the results depend on the processing

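Over the 14 tested member probe sets, 214 of 248 values under other settings kept their direction and their side of the threshold, 20 lost the call, 11 gained it and 3 reversed. The 3 reversals were of Socs2 1449109_at, which stood at -0.048 once arrays were centred on the 75th percentile, at -0.021 once centred on the median, and at -0.22 on the hybridization controls. Hybridization control scaling gave 4573 higher and 9586 lower among all probe sets (8678 and 5657 as deposited), 7 higher and 4 lower among member probe sets, 3 lower member genes, and 24 higher and 30 lower among pathway genes (42 and 16 as deposited). With 75th percentile centring 25 pathway genes were lower, as were 40.9% of all tested genes. The shares of all tested genes were 21.1% higher and 50.4% lower with hybridization controls, and 42.9% and 29.5% as deposited. Member probe sets called lower, 1 as deposited, numbered 2 with a pseudocount of 16 or 64, quantile normalization, 75th percentile or median centring, and 0 with no filter on detection. Member genes called lower, 1 as deposited, numbered 0 with no filter and among probe sets Present on all 6 arrays, where Socs1 was not tested. Apart from that filter, the causes were not tested. Leaving out one array gave 9 to 11 higher and 0 to 1 lower member probe sets, and 4 to 5 higher and 0 to 1 lower member genes, the lower one without Nup98::Nsd1 replicate 3 being Pim3 and not Socs1.

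The replicate numbers did not pair the samples: deviations of same-numbered arrays from their group means correlated at -0.02, -0.01 and 0.02. With the replicate number as a block, 2 member probe sets were called lower and 11 higher, and 8628 of all probe sets were higher. Dim signals limit Pim3, Socs1 and the dim Socs2 probe sets. The untested Socs2 and Pim3 probe sets Present on 1 Nup98::Nsd1 array were both Absent on every mock array. Their signals were 2.54-fold and 2.43-fold higher in Nup98::Nsd1 cells. With mock signals raised to a floor at the 5th percentile of Present signals, the folds were 2.45 and 1.79. These ratios set no lower bound, since most of the signals in them were not called Present.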
